A study of Mus musculus with 10 samples.

Results

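Reprogrammed adipocytes were compared with differentiated adipocytes on 2 of the 10 mouse whole-genome bead arrays of the study, 1 array for each population. The arrays were taken by their labels, and a probe entered the comparison where it was detected, at a detection p-value under 0.01, on at least 1 of the pair. This held for 17147 of 45281 probes. The study measured total RNA of cells it calls reprogrammed, of differentiated cells and of undifferentiated mesenchymal stem cells (MSC), the progenitors of fat, cartilage and bone cells in marrow. For every array the labels give C57BL/6J mice as the strain and MSC of adult bone marrow as the source. The array of the reprogrammed adipocytes is titled aCFU-F, that of the differentiated adipocytes Adipocyte, and the undifferentiated MSC stood on 2 arrays, MSC 1 and MSC 2. The labels do not name the treatment behind the word reprogrammed, its length, the culture media, or how many cultures or animals an array stands for. Intensities were background-corrected, quantile normalised and put on the log2 scale, where they are called levels, and a difference is the level in reprogrammed minus that in differentiated adipocytes. With 1 array a side the differences have no replicate check, and no test was made of any of them. The MSC arrays, the only 2 of the same population, served as a yardstick. In RNA of whole cultures, fewer cells of a type and less RNA per cell cannot be told apart.

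Adipocytes store fat as triglyceride in a droplet coated with perilipins and CIDE proteins, release it by the lipases ATGL, HSL and MGL, and secrete hormones such as adiponectin. Their gene programme is driven by PPARG and the C/EBP factors, and a mature fat cell has left the cell cycle. Bone marrow stromal cells can take this path in culture under a hormone mixture that usually holds insulin and a glucocorticoid. Marrow stroma in the undifferentiated state is, in contrast, a dividing fibroblast-like population rich in collagen, actin stress fibres and matrix enzymes.

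The adipocyte label was checked on 11 measured marker genes. The differentiated array detected 10 of them and the reprogrammed array 5. Adipoq, which encodes adiponectin, had levels of 5.05 (undetected) in reprogrammed adipocytes, 14.70 in differentiated adipocytes, 6.41 in MSC 1 and 7.91 in MSC 2. Plin1, the perilipin of the large droplet, had levels of 4.65 (undetected) in reprogrammed adipocytes, 9.12 in differentiated adipocytes, and was undetected at 4.49 and 4.45 on the MSC arrays. Fabp4, the fatty acid binding protein of fat cells, had levels of 4.51 (undetected) in reprogrammed adipocytes, 7.30 in differentiated adipocytes, and was undetected at 4.60 and 4.60 on the MSC arrays. All 3 were detected in differentiated and undetected in reprogrammed adipocytes, and Adipoq alone among them was detected on the MSC arrays. Retn, the gene of resistin, was undetected on both, and Lep, the gene of leptin, was detected at 5.62 in reprogrammed and 6.21 in differentiated adipocytes. Of the 10 markers tested, 0 were higher and 9 lower in reprogrammed adipocytes, with a median of -2.96, or -2.82 with undetected genes at the limits described below. The reprogrammed level was within 2-fold of both MSC arrays for 6 of the 10, and the differentiated level for 1, where the shares over all tested genes were 80.6% for reprogrammed and 57.7% for differentiated adipocytes. The differentiated array thus carried most markers of its label. The reprogrammed array did not, and the word adipocyte is used for it only as the label gives it.

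Markers of other cells were read in the same way. Of 9 tested stromal markers, 3 were higher, 0 lower and 6 neither, with a median of 0.86, or 0.34 with undetected genes at the limits. All 9 were detected in reprogrammed and 7 in differentiated adipocytes. Of 12 measured macrophage markers, 4 were detected in reprogrammed and 1 in differentiated adipocytes, and the defining Adgre1, Tyrobp and Ptprc were undetected on both. The 4 tested gave 1 higher and 0 lower, with a median of 0.56, or 0.15 with undetected genes at the limits. Over all 12, the summed linear intensity above the offset was 368 in reprogrammed and 361 in differentiated adipocytes, so this list was dim on both. Of 8 endothelial markers, Egfl7 was the brightest at 9.30 in reprogrammed and 8.97 in differentiated adipocytes, and Pecam1, Cdh5 and Tek were undetected. Among neutrophil markers S100a8, a calcium-binding alarmin, was undetected at 4.43 in reprogrammed and stood at 8.27 in differentiated adipocytes, with its partner S100a9 undetected on both. Mpo, myeloperoxidase, had 5.85 in reprogrammed and 7.66 in differentiated adipocytes, and Elane, neutrophil elastase, 4.71 (undetected) in reprogrammed and 6.25 in differentiated adipocytes. All 3 neutrophil genes tested were thus lower in reprogrammed adipocytes. Over the 9 measured neutrophil and B cell markers the summed linear intensity was 112 in reprogrammed and 596 in differentiated adipocytes, and their part in the other results was not tested. Of 9 chondrocyte markers 2 were tested, Col2a1 and Sox9, and of 11 markers of osteoblasts and osteocytes 4. Col2a1, the collagen of cartilage, had levels of 11.09 in reprogrammed adipocytes, 4.38 (undetected) in differentiated adipocytes, 7.82 in MSC 1 and 9.48 in MSC 2. Sp7, the osteoblast factor osterix, had levels of 9.89 in reprogrammed adipocytes, 5.23 (undetected) in differentiated adipocytes, 9.56 in MSC 1 and 9.56 in MSC 2. Col2a1 and Sp7 were detected on the MSC arrays too and undetected in differentiated adipocytes. Of the 4 osteoblast and osteocyte markers tested, 1 was higher, Sp7, and 1 lower, Alpl. Their median was 0.34, or -0.052 with undetected genes at the limits. Alpl had 5.51 (undetected) in reprogrammed and 6.86 in differentiated adipocytes. Acan, Comp and Bglap, which define mature cartilage and bone cells, were undetected on both adipocyte arrays.

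Of the 17147 probes, 3275 (19.1%) were at least 2-fold higher and 3041 (17.7%) at least 2-fold lower in reprogrammed than in differentiated adipocytes, with detection on the higher array, and such probes and genes are called higher or lower below. The other 10831 lay within 2-fold or had the higher side undetected. At 4-fold the counts were 985 higher and 929 lower, and at 16-fold 150 and 147. Read as genes, each by its brightest probe, 1732 of 9574 (18.1%) were higher and 1765 (18.4%) lower. The median difference over all genes was -0.0075, so the pair was centred. Over probes the median size of a difference was 0.73, against 0.44 between the MSC arrays. Between those arrays 1462 of 17060 probes (8.57%) were 2-fold higher and 1426 (8.36%) lower in MSC 2 than in MSC 1. The adipocyte pair thus held more 2-fold differences than the MSC pair did. Quantile normalisation gave the arrays 1 distribution, so the balance between directions is not read as a result. Detected probes numbered 15755 in reprogrammed and 14896 in differentiated adipocytes, of which 13504 were shared. The deposited intensities of both arrays had a mean of 538.2, and 8 of the 10 arrays, these included, shared 1 distribution as deposited. A gene undetected on 1 side is given a lower limit of its fold. The dim array is then set to the lowest level among its detected probes, which was 5.56 in reprogrammed and 5.78 in differentiated adipocytes, or to the gene's own level where that was higher. Of 1211 called genes with several tested probes, 93 had probes of opposite sign and 16 had a probe 2-fold apart in the other direction.

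**Figure D1:**
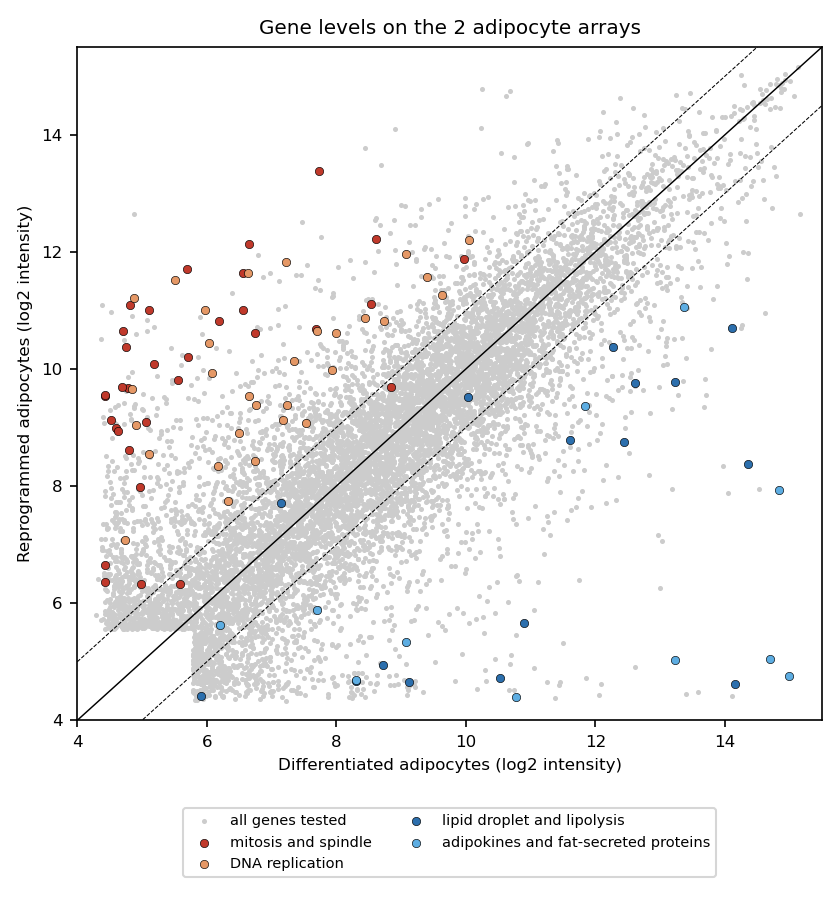
Level of each tested gene in reprogrammed adipocytes (vertical axis, log2 intensity) against its level in differentiated adipocytes (horizontal axis, log2 intensity), 1 point a gene and 1 array an axis, with the line of equality and dashed lines at 2-fold. Mitosis and replication genes lie above the line, and fat-secreted proteins and droplet genes other than Plin3 below it, many of them at background on the reprogrammed array.

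The largest differences ran towards lower levels. Lcn2, a lipocalin that fat and inflamed tissue secrete, had levels of 4.76 (undetected) in reprogrammed adipocytes, 14.99 in differentiated adipocytes, and was undetected at 4.67 and 4.57 on the MSC arrays. It was thus at least 689.6-fold lower in reprogrammed adipocytes, the largest limit of any named gene. Adipoq was at least 564-fold lower and Cidec, the droplet protein that enlarges droplets by fusion, at least 388-fold lower. Ces1d, a carboxylesterase of adipocyte and liver, was at least 376-fold lower, Car5b, a mitochondrial carbonic anhydrase, at least 132-fold, and Scara5, which takes up ferritin, at least 90.9-fold. Tgm2, a transglutaminase that crosslinks proteins, had 7.96 in reprogrammed and 14.53 in differentiated adipocytes, and Prxl2a, a peroxiredoxin-like protein, 7.88 in reprogrammed and 14.04 in differentiated adipocytes. Acsm3, a medium-chain acyl-CoA synthetase of mitochondria, was at least 59.8-fold lower.

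On the other side stood Ankrd1, a nuclear ankyrin repeat protein that responds to YAP and to mechanical load. Its levels were 12.65 in reprogrammed adipocytes, 4.87 (undetected) in differentiated adipocytes, 8.54 in MSC 1 and 12.65 in MSC 2, and it was at least 117-fold higher in reprogrammed adipocytes. The reprogrammed array was level with MSC 2, while MSC 1 lay between the adipocyte arrays. Birc5, or survivin, was at least 60.6-fold higher. Prkg2, a cyclic GMP-dependent kinase, was at least 36.7-fold higher, Dpysl3, a cytoskeletal protein of growing neurites, at least 34.8-fold and Unc5b, a netrin receptor, at least 33.4-fold. Emp1, an epithelial membrane protein, was detected on both, at 14.11 in reprogrammed and 8.91 in differentiated adipocytes.

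Genes were read in lists by role, beginning with the lipid droplet, and each list is given by its counts and median. Of 16 tested genes of the lipid droplet and lipolysis, 0 were higher and 14 lower, with a median difference of -3.54, or -3.29 with undetected genes at their limits. Cidec and Plin1 coat the droplet, and both were undetected in reprogrammed adipocytes. Plin4, a perilipin of nascent droplets, had levels of 9.78 in reprogrammed adipocytes, 13.23 in differentiated adipocytes, 10.64 in MSC 1 and 11.39 in MSC 2. Plin2, the perilipin found in many cell types, had levels of 8.78 in reprogrammed adipocytes, 11.61 in differentiated adipocytes, 7.73 in MSC 1 and 9.05 in MSC 2. Both were lower but still detected in reprogrammed adipocytes, Plin4 below both MSC arrays and Plin2 between them. Plin3, another perilipin of many cell types, lay within 2-fold, at 7.70 in reprogrammed and 7.15 in differentiated adipocytes.

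The enzymes that break stored fat down followed in order. Pnpla2, which encodes ATGL, the lipase of the first step, had levels of 8.38 in reprogrammed adipocytes, 14.36 in differentiated adipocytes, 8.56 in MSC 1 and 9.03 in MSC 2. Lipe, or HSL, the lipase of the next step, had levels of 5.66 in reprogrammed adipocytes, 10.90 in differentiated adipocytes, and was undetected at 4.60 and 5.21 on the MSC arrays. Mgll, the monoglyceride lipase of the last step, had levels of 4.67 (undetected) in reprogrammed adipocytes, 8.30 in differentiated adipocytes, and was undetected at 4.49 and 4.79 on the MSC arrays. All steps of lipolysis were thus lower in reprogrammed adipocytes, by 63-fold for Pnpla2, 37.7-fold for Lipe and at least 6.7-fold for Mgll. The regulators of ATGL were lower too, activator and inhibitor alike. Abhd5, its co-activator, had 8.75 in reprogrammed and 12.44 in differentiated adipocytes, a 13-fold difference. G0s2, its inhibitor, was at least 31.2-fold lower, and Aqp7, the glycerol channel of fat cells, at least 8.97-fold lower. Faf2, an adaptor that removes proteins from droplets, lay within 2-fold at 9.52 in reprogrammed and 10.04 in differentiated adipocytes. Of the 16 genes, 11 lay within 2-fold of both MSC arrays in reprogrammed adipocytes and 1 did so in differentiated adipocytes, against 80.6% and 57.7% of all tested genes.

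**Figure D2:**
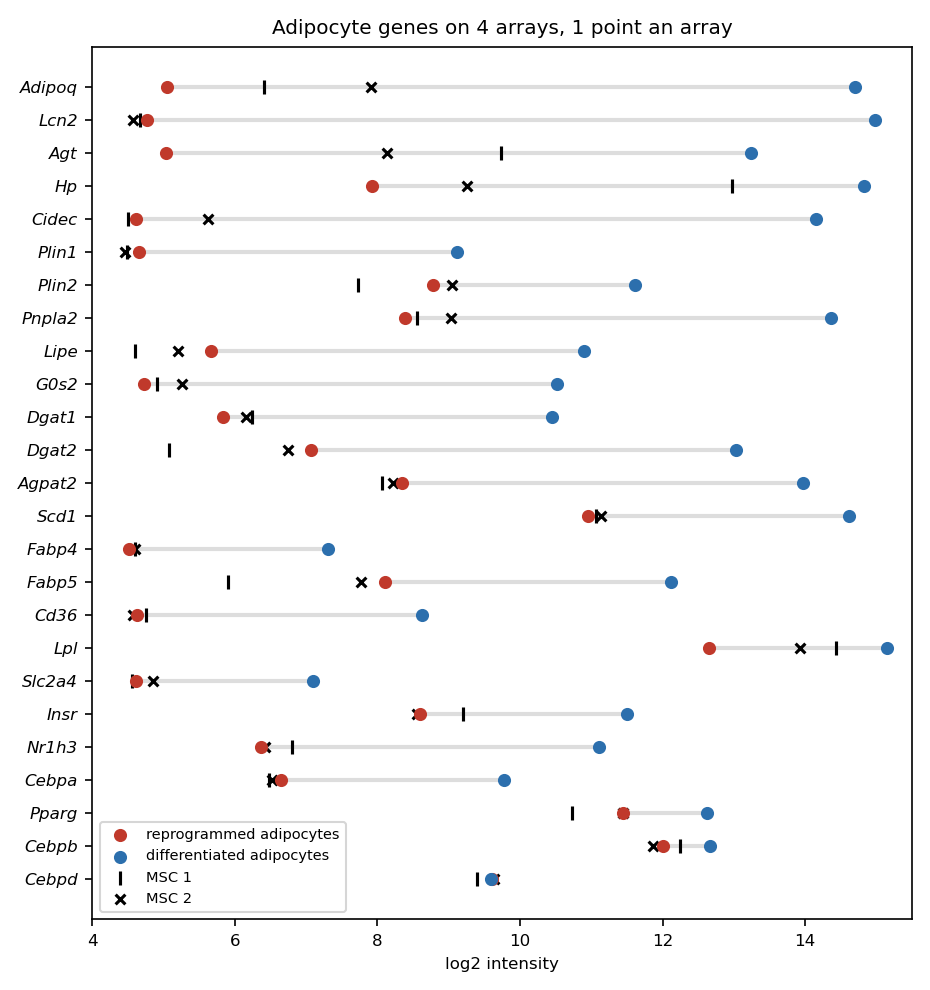
Levels of 25 adipocyte genes (horizontal axis, log2 intensity) in reprogrammed adipocytes (red), differentiated adipocytes (blue), MSC 1 (bars) and MSC 2 (crosses), 1 array each, joined by a grey line within the adipocyte pair. The differentiated array lies to the right for nearly all of them, and Cebpd stood at 9.60 in reprogrammed and 9.59 in differentiated adipocytes.

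Fatty acid and triglyceride synthesis was split. Of 19 tested genes 3 were higher and 12 lower, with a median of -1.33. The enzymes that assemble triglyceride from glycerol phosphate held the largest differences. Agpat2, an acyltransferase whose loss causes lipodystrophy, had levels of 8.35 in reprogrammed adipocytes, 13.97 in differentiated adipocytes, 8.06 in MSC 1 and 8.22 in MSC 2. Dgat2, which adds the last fatty acid, had levels of 7.06 in reprogrammed adipocytes, 13.03 in differentiated adipocytes, 5.08 (undetected) in MSC 1 and 6.75 in MSC 2. Dgat1, the other enzyme of that step, had levels of 5.83 in reprogrammed adipocytes, 10.44 in differentiated adipocytes, 6.24 in MSC 1 and 6.15 in MSC 2. Each was lower in reprogrammed adipocytes, Agpat2 49.4-fold, Dgat2 62.5-fold and Dgat1 24.5-fold. Lpin1, the phosphatidic acid phosphatase between them, was 19.9-fold lower, and Pcx, the pyruvate carboxylase that feeds glycerol and fatty acid synthesis, at least 37.1-fold lower. Scd1, the desaturase that makes oleate, was bright on all arrays, at 10.95 in reprogrammed adipocytes, 14.62 in differentiated adipocytes, 11.07 in MSC 1 and 11.13 in MSC 2.

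Other members lay within 2-fold. Acly, which makes cytosolic acetyl-CoA, had 12.46 in reprogrammed and 13.12 in differentiated adipocytes, and Elovl5, an elongase of unsaturated chains, 12.15 in reprogrammed and 12.52 in differentiated adipocytes. The 3 genes that were higher in reprogrammed adipocytes lengthen or desaturate fatty acids. Fads2, the delta-6 desaturase, was at least 5.63-fold higher, and Elovl6, the elongase of palmitate, was 7.35-fold higher at 9.24 in reprogrammed and 6.36 in differentiated adipocytes. Fads1, the delta-5 desaturase, had 12.26 in reprogrammed and 10.96 in differentiated adipocytes, a 2.46-fold difference.

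Of 11 tested genes of fatty acid uptake and binding, 1 was higher and 7 lower, with a median of -1.70. Cd36, the fatty acid translocase, was at least 8.43-fold lower, and Fabp5, a binding protein found in fat and skin, had 8.11 in reprogrammed and 12.12 in differentiated adipocytes. Vldlr, the very low density lipoprotein receptor, had levels of 6.03 in reprogrammed adipocytes, 10.65 in differentiated adipocytes, 7.43 in MSC 1 and 5.78 in MSC 2. Lpl, the lipase that frees fatty acids from lipoproteins, had levels of 12.65 in reprogrammed adipocytes, 15.16 in differentiated adipocytes, 14.43 in MSC 1 and 13.93 in MSC 2. Lpl was bright in MSC and lowest in reprogrammed adipocytes, which lay below both MSC arrays. Acsl5, an acyl-CoA synthetase, was the member that was higher, at 12.27 in reprogrammed and 10.89 in differentiated adipocytes, while Acsl3 had 8.93 in reprogrammed and 9.20 in differentiated adipocytes.

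Of 15 tested transcription factors of adipogenesis, 1 was higher and 11 lower, with a median of -1.42. Pparg, the master regulator of fat cell formation, had levels of 11.44 in reprogrammed adipocytes, 12.62 in differentiated adipocytes, 10.73 in MSC 1 and 11.44 in MSC 2. Cebpa, its partner in mature fat cells, had levels of 6.64 in reprogrammed adipocytes, 9.77 in differentiated adipocytes, 6.48 in MSC 1 and 6.52 in MSC 2. Both were lower in reprogrammed adipocytes, by 2.26-fold for Pparg and 8.77-fold for Cebpa, and Pparg stayed bright on all 4 arrays. Nr1h3, the oxysterol receptor LXR alpha, held the largest difference of the list, 26.8-fold, at 6.37 in reprogrammed and 11.12 in differentiated adipocytes. Srebf1, which drives lipid synthesis genes, had 6.15 in reprogrammed and 8.63 in differentiated adipocytes, and Zfp423, a factor of preadipocyte commitment, 5.78 in reprogrammed and 8.21 in differentiated adipocytes. Mlxipl, or ChREBP, which responds to glucose, was at least 2.51-fold lower. The early factors of the cascade lay within 2-fold by their brightest probes. Cebpb had 12.01 in reprogrammed and 12.66 in differentiated adipocytes, and Cebpd 9.60 in reprogrammed and 9.59 in differentiated adipocytes, though the difference of another Cebpd probe was -2.15. Klf5, which acts between the C/EBP factors and Pparg in mouse cells, was the member that was higher, at 8.14 in reprogrammed and 6.92 in differentiated adipocytes.

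Of 11 tested adipokines and other proteins that fat secretes, 0 were higher and 10 lower, with a median of -3.74, or -3.52 with the limits. Agt, or angiotensinogen, had levels of 5.04 (undetected) in reprogrammed adipocytes, 13.23 in differentiated adipocytes, 9.73 in MSC 1 and 8.13 in MSC 2. Hp, or haptoglobin, had levels of 7.93 in reprogrammed adipocytes, 14.83 in differentiated adipocytes, 12.98 in MSC 1 and 9.25 in MSC 2. Rbp4, the plasma carrier of retinol, had levels of 5.34 (undetected) in reprogrammed adipocytes, 9.08 in differentiated adipocytes, 6.76 in MSC 1 and 4.73 (undetected) in MSC 2. Agt and Hp were detected on both MSC arrays and lowest of the 4 arrays in reprogrammed adipocytes. Serpina3n, a serine protease inhibitor of the acute phase, was at least 37.3-fold lower, and Orm1, an acid glycoprotein, at least 6.68-fold lower. Nampt, the visfatin gene, had 9.37 in reprogrammed and 11.84 in differentiated adipocytes, and Angptl4, an inhibitor of lipoprotein lipase, 11.05 in reprogrammed and 13.36 in differentiated adipocytes. Lep was the tested member within 2-fold.

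Of 14 tested genes of insulin response and glucose uptake, 1 was higher and 9 lower, with a median of -2.07, or -1.51 with the limits. Insr, the insulin receptor, had 8.60 in reprogrammed and 11.50 in differentiated adipocytes, and Irs2, its docking protein, 6.58 in reprogrammed and 10.00 in differentiated adipocytes. Slc2a4, the insulin-responsive glucose transporter GLUT4, was at least 2.9-fold lower, and Akt2, the kinase that moves it to the surface, at least 2.47-fold lower. Slc2a1, the general transporter GLUT1, lay within 2-fold at 10.75 in reprogrammed and 10.34 in differentiated adipocytes. Receptor, adaptor, kinase and transporter of this route thus all read lower in reprogrammed adipocytes. Cav1, the coat protein of caveolae, had 11.53 in reprogrammed and 14.34 in differentiated adipocytes, and Trib3, an AKT inhibitor induced by stress, 8.25 in reprogrammed and 11.36 in differentiated adipocytes. Ppp1r3c, a glycogen-targeting subunit of a phosphatase, had levels of 6.47 in reprogrammed adipocytes, 10.77 in differentiated adipocytes, 11.15 in MSC 1 and 7.41 in MSC 2, so MSC 1 lay as high as the differentiated array. Gys1, the glycogen synthase of muscle and fat, was the higher member, with a difference of 1.31.

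Of 20 tested genes of fatty acid oxidation, 0 were higher and 16 lower, with a median of -1.33, and 18 lay within 2-fold of both MSC arrays in reprogrammed adipocytes, as did 80.6% of all tested genes. Cpt2, the inner membrane carnitine transferase, had 10.41 in reprogrammed and 12.68 in differentiated adipocytes, and Acadl, the long-chain dehydrogenase, 8.26 in reprogrammed and 10.22 in differentiated adipocytes. Hadhb, a subunit of the trifunctional protein, had 11.74 in reprogrammed and 13.64 in differentiated adipocytes, and its partner Hadha was at least 4.57-fold lower. Eci1, which moves double bonds, had 9.93 in reprogrammed and 12.55 in differentiated adipocytes, and Ech1 10.55 in reprogrammed and 12.57 in differentiated adipocytes. Pdk4, which spares glucose when fat is burned, lay within 2-fold at 11.52 in reprogrammed and 11.80 in differentiated adipocytes. Of 28 tested respiratory chain subunits, 0 were higher and 5 lower, with a median of -0.71, and 27 of 28 differences were below 0. The lower share, 17.9%, was near the 18.4% of all genes that were lower. The 5 were Ndufv1, Cyc1, Cycs, Uqcrc2 and Ndufa1, with differences from -1.49 to -1.18. Of 13 measured genes of brown and beige fat, 3 were tested, of which 0 were higher and 2 lower. Elovl3, an elongase of brown fat, was at least 11.6-fold lower, and Ppargc1b, a co-activator of mitochondrial genes, at least 15.7-fold lower. Cox7a1, a cytochrome oxidase subunit, was the third, within 2-fold at 6.05 in reprogrammed and 5.33 (undetected) in differentiated adipocytes.

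Preadipocyte genes and inhibitors of adipogenesis were mostly higher. Of 17 tested, 10 were higher and 2 lower, with a median of 1.06. Dlk1, or Pref-1, which keeps preadipocytes from maturing, had levels of 10.88 in reprogrammed adipocytes, 5.90 in differentiated adipocytes, 10.42 in MSC 1 and 8.56 in MSC 2. Gata2, a factor that blocks the step from preadipocyte to fat cell, had levels of 9.01 in reprogrammed adipocytes, 5.48 (undetected) in differentiated adipocytes, 8.33 in MSC 1 and 9.01 in MSC 2. Wnt10b, a Wnt ligand that blocks adipogenesis, had levels of 7.79 in reprogrammed adipocytes, 4.51 (undetected) in differentiated adipocytes, 8.58 in MSC 1 and 7.60 in MSC 2. Differentiated adipocytes were lowest of the 4 arrays for each of these genes, which were 31.7-fold, at least 9.38-fold and at least 4.03-fold higher in reprogrammed adipocytes. Tgfb2 was at least 10.2-fold higher, and Tgfb3, another ligand of the TGF-beta family, had 8.15 in reprogrammed and 5.87 in differentiated adipocytes. Sox9, a chondrogenic factor that also represses C/EBP genes, had 9.13 in reprogrammed and 6.78 in differentiated adipocytes, and Foxc2, a forkhead factor, 11.23 in reprogrammed and 9.50 in differentiated adipocytes. The 2 lower members were Ddit3, the stress factor CHOP that can dimerise with C/EBP proteins, at 9.13 in reprogrammed and 11.76 in differentiated adipocytes, and Gata3 at 5.89 in reprogrammed and 7.33 in differentiated adipocytes.

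Of 12 tested genes of the TGF-beta and BMP family, Tgfb2 and Tgfb3 among them, 6 were higher and 1 lower, with a median of 1.22, or 0.82 with the limits. Ltbp1, which holds TGF-beta in the matrix, was at least 29.3-fold higher, and Inhba, which encodes activin A, was 25.6-fold higher at 11.65 in reprogrammed and 6.97 in differentiated adipocytes. Smad6, an inhibitory SMAD, had 9.06 in reprogrammed and 7.05 in differentiated adipocytes. Bmp4 had levels of 4.94 (undetected) in reprogrammed adipocytes, 6.71 in differentiated adipocytes, 9.71 in MSC 1 and 8.63 in MSC 2, and it was the lower member, undetected in reprogrammed adipocytes alone. The 15 tested Wnt regulators went both ways, with 7 higher (46.7%), 3 lower (20%) and a median of 0.57. Over all tested genes the shares were 18.1% and 18.4%. Wif1, a secreted Wnt inhibitor, was at least 4.1-fold higher, and Sfrp2, another of these, had 10.87 in reprogrammed and 7.95 in differentiated adipocytes. Ccn4, a Wnt-induced matricellular protein, had 9.99 in reprogrammed and 6.79 in differentiated adipocytes. On the lower side were Porcn, which lipidates Wnt ligands, 13.2-fold lower, and Axin2, a feedback target of the pathway, which was at least 2.76-fold lower.

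Genes that glucocorticoids induce were lower. Of 18 tested, 1 was higher and 13 lower, with a median of -1.81, or -1.71 with the limits. Fkbp5, a co-chaperone of the receptor, had levels of 7.92 in reprogrammed adipocytes, 11.80 in differentiated adipocytes, 7.23 in MSC 1 and 7.76 in MSC 2. Tsc22d3, or GILZ, had levels of 9.99 in reprogrammed adipocytes, 12.65 in differentiated adipocytes, 10.08 in MSC 1 and 9.89 in MSC 2. Hsd11b1, which regenerates active glucocorticoid, was 107-fold lower. Glul, glutamine synthetase, was at least 26.5-fold lower, and Zbtb16, a zinc finger repressor, at least 3.54-fold lower. The receptor itself, Nr3c1, had 5.61 in reprogrammed and 5.04 (undetected) in differentiated adipocytes, and Sgk1, a kinase target, lay within 2-fold at 13.81 in reprogrammed and 13.92 in differentiated adipocytes. Cdkn1c, a cell cycle inhibitor, was the higher member, at least 2.99-fold, and stood at 5.39 (undetected) in MSC 1 and 8.83 in MSC 2. The same list had medians of -1.38 in the chondrocyte pair and -2.02 in the osteocyte pair. The list median was thus below 0 in each of the 3 pairs, over the members tested in the adipocyte pair. Not every member was lower in the other pairs, Angptl4 being an exception in both. The pairs share no array but were normalised together, and the osteocyte arrays were deposited on another intensity distribution.

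Enzymes of xenobiotic and steroid metabolism held several of the largest differences. Of 20 tested, 0 were higher and 16 lower, with a median of -3.72, or -3.68 with the limits. Sult1a1, a phenol sulfotransferase, was at least 261-fold lower, and Gsta3, a glutathione transferase, at least 230.3-fold lower. Cyp2e1, the ethanol-inducible cytochrome P450, had levels of 4.63 (undetected) in reprogrammed adipocytes, 12.08 in differentiated adipocytes, and was undetected at 4.79 and 4.73 on the MSC arrays. Cyp2f2, another cytochrome P450, had levels of 4.61 (undetected) in reprogrammed adipocytes, 11.43 in differentiated adipocytes, and was undetected at 4.52 and 4.81 on the MSC arrays. Among these 4 arrays both cytochromes were detected on the differentiated one only, and were at least 92.1-fold and at least 58.7-fold lower in reprogrammed adipocytes. Aldh1a7, an aldehyde dehydrogenase, was at least 78.5-fold lower, and Adh1, the class I alcohol dehydrogenase, at least 24.6-fold lower. Gstp1, a transferase present in most cells, lay within 2-fold at 12.69 in reprogrammed and 12.99 in differentiated adipocytes. Complement and acute phase genes were also lower, 8 of 9 tested with 0 higher, and a median of -3.39, or -2.43 with the limits. Saa3, a serum amyloid of fat and macrophages, was at least 34.6-fold lower and Orm2 at least 5.38-fold lower. Cfp, or properdin, lay within 2-fold at 8.10 in reprogrammed and 8.06 in differentiated adipocytes.

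Cell division genes made the clearest block on the higher side. Of 33 tested genes of mitosis and the spindle, 31 were higher and 0 lower, with a median of 4.44, or 3.78 with undetected genes at their limits. All 33 were detected in reprogrammed and 11 in differentiated adipocytes. Top2a, the topoisomerase that untangles chromosomes, had levels of 11.09 in reprogrammed adipocytes, 4.81 (undetected) in differentiated adipocytes, 9.08 in MSC 1 and 10.75 in MSC 2. Cdca8, or borealin, of the chromosomal passenger complex, had levels of 10.64 in reprogrammed adipocytes, 4.71 (undetected) in differentiated adipocytes, 8.50 in MSC 1 and 10.35 in MSC 2. Cdca3, an adaptor of a mitotic ubiquitin ligase, had levels of 11.01 in reprogrammed adipocytes, 5.11 (undetected) in differentiated adipocytes, 8.86 in MSC 1 and 10.90 in MSC 2. These were at least 39.6-fold, at least 29.2-fold and at least 37.5-fold higher in reprogrammed adipocytes, which lay close to MSC 2 and above MSC 1. Aurkb, the kinase of that complex, was at least 16.5-fold higher, a gene named here after its value was seen. Cenpa, the histone of the centromere, had 13.39 in reprogrammed and 7.73 in differentiated adipocytes, and Anln, a ring protein of cytokinesis, 12.13 in reprogrammed and 6.66 in differentiated adipocytes. These are their brightest probes, and the 2 tested probes had differences of 1.79 and 5.66 for Cenpa and 1.72 and 5.47 for Anln. Bub1b, a checkpoint kinase, was at least 24.3-fold higher. Pttg1, or securin, and Spc24, a kinetochore protein, were the members within 2-fold, the second at 9.69 in reprogrammed and 8.85 in differentiated adipocytes. The MSC arrays differed for the same list, with medians of 8.50 on MSC 1 and 9.98 on MSC 2, against 10.09 in reprogrammed and 5.11 in differentiated adipocytes.

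Promoters of mitotic genes often hold a CCAAT box, bound by NF-Y, together with the element TTTGAA, known as the cell cycle genes homology region. These letters, CCAAT and TTTGAA were searched on both strands in RefSeq promoter windows of 300 bases around the start of each gene (build GRCm38.p6), where a match is a string of letters and not a shown binding site. The 31 genes at least 2-fold apart had 30 windows for 28 genes. TTTGAA stood in 83.3% of these, CCAAT in 76.7% and both in 73.3%. Among 10018 windows of all genes tested in the pair the shares were 11.8%, 38.1% and 4.72%. The windows of the 3 genes described above are printed 5′ to 3′ in the direction of the gene because they hold these letters together, with CCAAT or its reverse ATTGG, and TTTGAA or its reverse TTCAAA, in capitals. Top2a lies at chr11:99024140-99024439 on the minus strand, with 6 CCAAT and 2 TTTGAA matches. Cdca8 lies at chr4:124936868-124937167 on the minus strand, with 4 CCAAT and 1 TTTGAA matches, where the TTTGAA overlaps an ATTGG. Cdca3 lies at chr6:124829926-124830225 on the plus strand, with 3 CCAAT and 1 TTTGAA matches.
Top2a: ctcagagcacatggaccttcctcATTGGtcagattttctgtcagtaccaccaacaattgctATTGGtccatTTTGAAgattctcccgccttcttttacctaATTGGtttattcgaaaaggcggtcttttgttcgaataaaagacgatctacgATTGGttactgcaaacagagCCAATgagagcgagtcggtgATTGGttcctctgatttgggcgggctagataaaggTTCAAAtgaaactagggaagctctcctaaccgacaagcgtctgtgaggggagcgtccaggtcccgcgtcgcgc
Cdca8: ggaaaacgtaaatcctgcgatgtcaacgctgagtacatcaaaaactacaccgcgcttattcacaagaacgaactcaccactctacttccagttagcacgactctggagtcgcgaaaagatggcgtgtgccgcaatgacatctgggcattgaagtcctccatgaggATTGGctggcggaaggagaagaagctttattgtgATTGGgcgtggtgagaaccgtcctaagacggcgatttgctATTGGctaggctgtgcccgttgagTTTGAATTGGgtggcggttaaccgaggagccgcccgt
Cdca3: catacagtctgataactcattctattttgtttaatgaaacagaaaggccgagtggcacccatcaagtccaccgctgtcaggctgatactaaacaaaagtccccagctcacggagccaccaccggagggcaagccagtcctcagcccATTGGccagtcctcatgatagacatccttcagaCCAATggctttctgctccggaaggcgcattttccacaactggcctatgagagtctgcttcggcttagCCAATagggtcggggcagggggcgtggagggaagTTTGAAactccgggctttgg

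DNA replication genes were higher without exception, 30 of 30 tested, with a median of 2.62. Of these, 30 were detected in reprogrammed and 24 in differentiated adipocytes. The helicase that opens DNA was represented by Mcm5, at 11.83 in reprogrammed and 7.22 in differentiated adipocytes, a 24.4-fold difference. Enzymes of nucleotide supply were higher too. Rrm2, the regulated subunit of ribonucleotide reductase, was at least 53.5-fold higher by its brightest probe, while the lowest difference among its 3 tested probes was -0.72. Tk1, thymidine kinase, had 11.01 in reprogrammed and 5.98 in differentiated adipocytes. Pclaf, a partner of the sliding clamp, had levels of 11.20 in reprogrammed adipocytes, 4.87 (undetected) in differentiated adipocytes, 9.12 in MSC 1 and 11.07 in MSC 2. Cdc6, which loads the helicase, had levels of 9.66 in reprogrammed adipocytes, 4.85 (undetected) in differentiated adipocytes, 7.42 in MSC 1 and 9.63 in MSC 2. The 2 tested probes of Cdc6 had differences of 1.24 and 4.81. Uhrf1, which brings the maintenance methyltransferase to newly made DNA, had levels of 11.64 in reprogrammed adipocytes, 6.64 in differentiated adipocytes, 9.77 in MSC 1 and 11.64 in MSC 2. Reprogrammed adipocytes thus stood at the level of MSC 2 for these genes, above MSC 1 and above differentiated adipocytes. The list medians were 10.06 in reprogrammed adipocytes, 6.76 in differentiated adipocytes, 8.43 in MSC 1 and 9.85 in MSC 2.

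The letters TTTGGCGC or TTTCCCGC, which fit the sites of E2F factors, stood in 32.3% of 31 windows of 26 replication genes and in 2.76% of the 10018 windows. In the mitosis windows they stood in 0 of 30. The windows of Pclaf (chr9:65890073-65890372, plus strand) and Cdc6 (chr11:98907901-98908200, plus strand) are shown as members that hold them, each with 1 match read on the reverse strand as GCGGGAAA, in capitals.
Pclaf: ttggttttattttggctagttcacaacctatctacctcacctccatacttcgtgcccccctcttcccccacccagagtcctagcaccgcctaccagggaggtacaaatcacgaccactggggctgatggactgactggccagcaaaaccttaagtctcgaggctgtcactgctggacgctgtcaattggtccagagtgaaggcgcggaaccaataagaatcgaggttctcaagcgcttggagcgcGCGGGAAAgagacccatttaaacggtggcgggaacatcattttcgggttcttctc
Cdc6: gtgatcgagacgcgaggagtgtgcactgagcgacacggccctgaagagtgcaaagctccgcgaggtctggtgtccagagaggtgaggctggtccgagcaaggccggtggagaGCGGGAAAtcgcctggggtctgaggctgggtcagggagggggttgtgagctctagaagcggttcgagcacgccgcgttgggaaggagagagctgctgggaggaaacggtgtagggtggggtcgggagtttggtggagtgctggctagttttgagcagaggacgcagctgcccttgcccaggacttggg

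**Figure D3:**
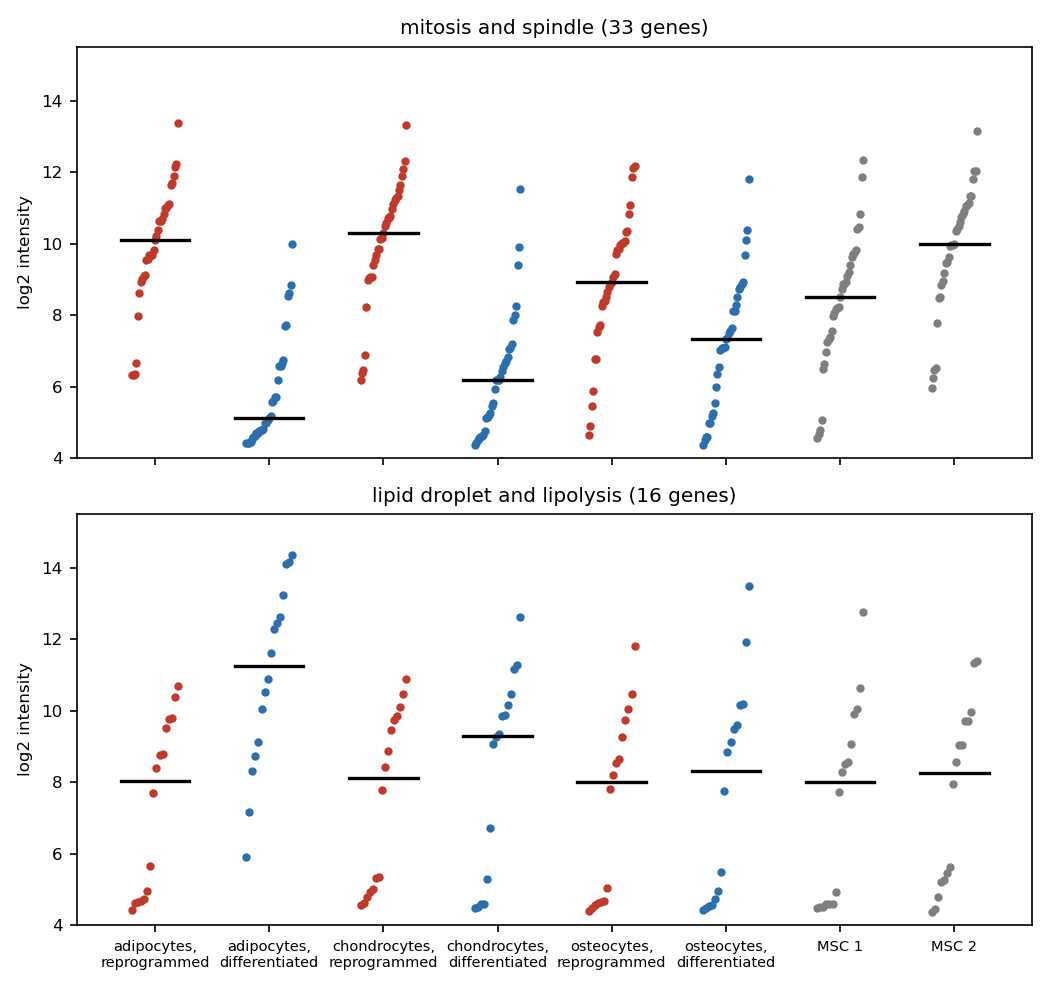
Levels (log2 intensity) of 33 mitosis and spindle genes (top) and 16 genes of the lipid droplet and lipolysis (bottom) on 8 arrays, 1 point a gene, sorted within each array, with the median as a bar. The mitosis medians were 10.09 in reprogrammed and 5.11 in differentiated adipocytes, and the droplet medians 8.04 in reprogrammed and 11.25 in differentiated adipocytes.

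Brakes of the cell cycle went both ways. Of 17 tested, 4 were higher (23.5%) and 7 lower (41.2%), with a median of -0.52. Over all tested genes the shares were 18.1% and 18.4%. Trp53inp1, a stress protein induced by p53, had levels of 8.19 in reprogrammed adipocytes, 12.84 in differentiated adipocytes, 10.55 in MSC 1 and 8.83 in MSC 2. Cdkn1a, or p21, had 11.43 in reprogrammed and 13.09 in differentiated adipocytes, and Cdkn2c, or p18, 9.72 in reprogrammed and 11.61 in differentiated adipocytes, with differences between -2.88 and 0.36 over its 3 tested probes. Tob1, an antiproliferative protein, had 7.83 in reprogrammed and 10.29 in differentiated adipocytes, and Gadd45a, a growth arrest gene, 8.21 in reprogrammed and 10.60 in differentiated adipocytes. These brakes were higher in differentiated adipocytes, while Rbl1, the pocket protein p107, and Cdkn2d, or p19, were higher in reprogrammed adipocytes, with differences of 2.12 and 2.10. Cdkn1b, or p27, lay within 2-fold at 6.57 in reprogrammed and 6.99 in differentiated adipocytes.

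Of 16 tested collagen genes, 7 were higher and 4 lower, with a median of 0.96, or 0.79 with the limits. Col1a1, the main chain of type I collagen, had levels of 10.49 in reprogrammed adipocytes, 4.72 (undetected) in differentiated adipocytes, 10.81 in MSC 1 and 9.65 in MSC 2. Col1a2, its partner chain, had 11.73 in reprogrammed and 8.03 in differentiated adipocytes. Col8a1, a short-chain collagen, had levels of 10.71 in reprogrammed adipocytes, 6.78 in differentiated adipocytes, 11.38 in MSC 1 and 11.07 in MSC 2. These 3 genes were at least 26.2-fold, 13-fold and 15.3-fold higher in reprogrammed adipocytes, near the MSC arrays. Of the 16 collagens, 7 lay within 2-fold of both MSC arrays in reprogrammed and 2 in differentiated adipocytes. Over all tested genes the shares were 80.6% and 57.7%. Col3a1 was not called, at 9.46 in reprogrammed adipocytes, 8.47 in differentiated adipocytes, 11.86 in MSC 1 and 10.75 in MSC 2. Col16a1 had 11.24 in reprogrammed and 7.93 in differentiated adipocytes and Col5a2 9.33 in reprogrammed and 7.32 in differentiated adipocytes. The lower members were Col4a1, Col6a1, Col6a2 and Col15a1. Col4a1, a chain of the basement membrane that surrounds fat cells, had 11.48 in reprogrammed and 12.64 in differentiated adipocytes, and Col6a1 and Col6a2, of the beaded microfibrils, had differences of -1.52 and -2.30. Col15a1, a collagen of the basement membrane zone, had -1.24. Related chains did not share this direction, since Col7a1, of the anchoring fibrils, was higher at 1.45, and Col4a5, Col18a1 and Col4a2 lay within 2-fold with 0.55, 0.60 and -0.71.

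Of 24 tested genes of other matrix proteins and crosslinking enzymes, 19 were higher and 1 lower, with a median of 2.03, or 1.84 with the limits. Fn1, fibronectin, had levels of 11.60 in reprogrammed adipocytes, 7.46 in differentiated adipocytes, 11.78 in MSC 1 and 11.06 in MSC 2. Tnc, or tenascin C, of provisional matrix, had levels of 10.60 in reprogrammed adipocytes, 4.91 (undetected) in differentiated adipocytes, 8.19 in MSC 1 and 9.35 in MSC 2. Fbln2, a fibulin, had levels of 13.49 in reprogrammed adipocytes, 8.69 in differentiated adipocytes, 12.59 in MSC 1 and 13.33 in MSC 2. All were lowest in differentiated adipocytes, and Tnc was 2-fold above both MSC arrays in reprogrammed adipocytes. Ccn2, the connective tissue growth factor, had 14.74 in reprogrammed and 10.68 in differentiated adipocytes, and Thbs1, thrombospondin 1, 9.49 in reprogrammed and 5.80 in differentiated adipocytes. Serpinh1, the collagen chaperone HSP47, had 13.91 in reprogrammed and 11.41 in differentiated adipocytes. Nid2, a nidogen of basement membranes, was the lower member, at 6.91 in reprogrammed and 8.09 in differentiated adipocytes, and the laminin chains Lamb1 and Lamc1 lay within 2-fold with differences of -0.84 and -0.70.

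Of 15 tested matrix proteases and their inhibitors, 10 were higher and 3 lower, with a median of 2.27, or 2.01 with the limits. Timp1, an inhibitor of metalloproteinases, had levels of 13.78 in reprogrammed adipocytes, 8.44 in differentiated adipocytes, 13.88 in MSC 1 and 13.20 in MSC 2. Timp3, an inhibitor bound to the matrix, had levels of 11.95 in reprogrammed adipocytes, 6.79 in differentiated adipocytes, 12.02 in MSC 1 and 11.47 in MSC 2. Mmp2, the gelatinase of stromal cells, had 11.86 in reprogrammed and 8.21 in differentiated adipocytes. Both inhibitors and the enzyme were thus higher, Timp1 40.5-fold, Timp3 35.8-fold and Mmp2 12.6-fold. The 3 tested probes of Timp3 had differences between 1.18 and 5.16. Plat and Plaur, of the plasminogen activator system, were at least 7.09-fold and at least 3.42-fold higher, and Mmp14, a membrane metalloproteinase, had 12.06 in reprogrammed and 9.46 in differentiated adipocytes. Mmp13, a collagenase, had levels of 7.46 in reprogrammed adipocytes, 10.95 in differentiated adipocytes, 10.08 in MSC 1 and 10.64 in MSC 2, and reprogrammed adipocytes lay below all the others. Adamts12 and Mmp11 were the other lower members, with differences of -3.35 and -1.38.

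Of 17 tested contractile genes, 14 were higher and 2 lower, with a median of 1.93. Acta2, smooth muscle actin, had levels of 14.79 in reprogrammed adipocytes, 10.25 in differentiated adipocytes, 14.74 in MSC 1 and 14.63 in MSC 2. Its 5 tested probes had differences between 1.06 and 6.90. Tpm2, a tropomyosin, had levels of 12.51 in reprogrammed adipocytes, 7.47 in differentiated adipocytes, 11.77 in MSC 1 and 12.63 in MSC 2. Cnn2, a calponin, had levels of 11.57 in reprogrammed adipocytes, 6.87 in differentiated adipocytes, 10.06 in MSC 1 and 11.39 in MSC 2, and Myl9, a myosin light chain, levels of 11.50 in reprogrammed adipocytes, 7.11 in differentiated adipocytes, 12.18 in MSC 1 and 10.83 in MSC 2. Differentiated adipocytes were lowest of the 4 arrays for each of these genes. Tagln, or SM22, was at least 5.12-fold higher, Actg2, an enteric actin, at least 9.11-fold, and Flna, a filamin, 13.1-fold. Mylk, the myosin light chain kinase, was lower, at 7.46 in reprogrammed and 9.36 in differentiated adipocytes, as was Des, or desmin, at 5.71 in reprogrammed and 6.98 in differentiated adipocytes. Myh11, the myosin of mature smooth muscle, was undetected in reprogrammed adipocytes at 4.85 and stood at 5.82 in differentiated adipocytes.

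Among targets of YAP and SRF, which respond to tension in the actin skeleton, 8 of 13 tested were higher and 1 lower, with a median of 1.24. Ankrd1 and Ccn2 led, followed by Axl, a receptor kinase, at 12.45 in reprogrammed and 8.68 in differentiated adipocytes, Crim1, at least 5.84-fold higher, and Ccn1, at 13.23 in reprogrammed and 11.06 in differentiated adipocytes. Srf itself had 10.65 in reprogrammed and 9.52 in differentiated adipocytes, and Tead1, the partner of YAP on DNA, lay within 2-fold at 10.18 in reprogrammed and 9.85 in differentiated adipocytes. Tead4 was at least 1.98-fold lower. The CArG box, to which SRF binds, was found in 18.8% of 16 promoter windows of 14 contractile genes at least 2-fold apart in either direction, and in 1.43% of the 10018 windows. The windows of Cnn2 (chr10:79988350-79988649, plus strand) and Myl9 (chr2:156775214-156775513, plus strand) are shown as members that hold it, in capitals.
Cnn2: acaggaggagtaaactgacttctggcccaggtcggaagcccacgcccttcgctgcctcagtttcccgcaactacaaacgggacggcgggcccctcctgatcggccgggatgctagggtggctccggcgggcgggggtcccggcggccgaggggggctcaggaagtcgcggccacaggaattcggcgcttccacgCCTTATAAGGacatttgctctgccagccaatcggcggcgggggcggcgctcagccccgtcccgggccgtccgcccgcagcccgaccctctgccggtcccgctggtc
Myl9: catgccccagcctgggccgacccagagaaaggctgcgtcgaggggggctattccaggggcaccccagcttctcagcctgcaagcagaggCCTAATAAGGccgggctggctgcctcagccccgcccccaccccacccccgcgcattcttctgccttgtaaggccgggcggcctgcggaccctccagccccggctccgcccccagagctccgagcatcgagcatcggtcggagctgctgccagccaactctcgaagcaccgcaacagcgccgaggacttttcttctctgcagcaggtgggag

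Stromal surface and niche genes went both ways, with 6 of 16 tested higher (37.5%), 4 lower (25%) and a median of 0.21. Over all tested genes 18.1% were higher and 18.4% lower. Cd44, the hyaluronan receptor, had levels of 11.51 in reprogrammed adipocytes, 7.71 in differentiated adipocytes, 10.47 in MSC 1 and 10.98 in MSC 2. Pdgfrb, a receptor of platelet-derived growth factor, had 8.99 in reprogrammed and 6.37 in differentiated adipocytes, and Nes, or nestin, was at least 3.09-fold higher. Mcam, an adhesion protein of pericytes and endothelium, had levels of 5.06 (undetected) in reprogrammed adipocytes, 10.45 in differentiated adipocytes, and was undetected at 4.89 and 4.68 on the MSC arrays. Kitl, the stem cell factor of the marrow niche, had levels of 6.86 in reprogrammed adipocytes, 9.88 in differentiated adipocytes, 8.38 in MSC 1 and 8.30 in MSC 2. Mcam was thus bright in differentiated adipocytes alone among these 4 arrays, and Kitl lowest in reprogrammed adipocytes. Cxcl12, the niche chemokine, was bright and within 2-fold at 13.61 in reprogrammed and 13.52 in differentiated adipocytes. Of 16 tested mesenchymal transcription factors, 8 were higher and 2 lower, with a median of 0.97. Snai1, a repressor of epithelial genes, was at least 12-fold higher, and Osr1 had 8.32 in reprogrammed and 6.27 in differentiated adipocytes. The lower pair were Osr2 and Zeb1, with differences of -1.55 and -1.37.

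Genes that mark pluripotency, germline or a reset of imprints were read because of the word reprogrammed in the label. Of 15 measured pluripotency genes, 4 were tested, 2 were higher and 0 lower, with a median of 0.66, or 0.027 with the limits. Klf4 had levels of 9.80 in reprogrammed adipocytes, 7.43 in differentiated adipocytes, 10.14 in MSC 1 and 9.53 in MSC 2, in the range of the MSC. Nanog was at least 1.04-fold higher, at 5.84 in reprogrammed adipocytes, 4.52 (undetected) in differentiated adipocytes, 5.95 in MSC 1 and 5.71 in MSC 2, a level near the detection limit of each array. Myc had 7.17 in reprogrammed and 7.17 in differentiated adipocytes. Of 15 measured germline genes, 2 were tested, both tubulin genes, Tuba3a and Tuba3b, with differences of 1.48 and 1.65. Their sequences are nearly the same, so which of them was read is uncertain. Of 7 tested genes of DNA methylation 3 were higher and 0 lower. Dnmt1, the maintenance enzyme, had 10.43 in reprogrammed and 7.75 in differentiated adipocytes, and Dnmt3b, which sets new marks, lay within 2-fold with a difference of 0.56. Of 8 tested imprinted genes 2 were higher and 2 lower, where 18.1% and 18.4% of all tested genes were. Igf2, a growth factor, had levels of 5.07 (undetected) in reprogrammed adipocytes, 7.82 in differentiated adipocytes, 11.78 in MSC 1 and 7.81 in MSC 2, and so was undetected in reprogrammed adipocytes alone among these arrays.

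Glycolysis and hypoxia genes were higher on balance, 9 of 18 tested with 2 lower and a median of 1.02, or 0.83 with the limits. For the same genes the median of MSC 2 minus MSC 1 was 0.85, a difference of similar size. Pgk1 had 13.96 in reprogrammed and 12.06 in differentiated adipocytes, Ldha, lactate dehydrogenase, 13.95 in reprogrammed and 12.23 in differentiated adipocytes, and Pdk1, which blocks pyruvate entry into mitochondria, 9.38 in reprogrammed and 7.47 in differentiated adipocytes. Egln3 and Bnip3, hypoxia targets, were the lower members, the first at 7.07 in reprogrammed and 8.68 in differentiated adipocytes. Genes of the unfolded protein response gave 8 higher and 1 lower of 16, with a median of 0.95. Calr, calreticulin, had 11.55 in reprogrammed and 9.49 in differentiated adipocytes, and Dnajb9 was the lower member, at 10.35 in reprogrammed and 12.55 in differentiated adipocytes. Of 17 tested cholesterol synthesis genes, 1 was higher (5.88%) and 5 lower (29.4%), with a median of -0.47. Cyp51, a demethylase of lanosterol, had 10.35 in reprogrammed and 12.49 in differentiated adipocytes, and Stard4, a sterol carrier, 9.07 in reprogrammed and 7.08 in differentiated adipocytes. Of 15 tested serine and one-carbon genes, 3 were higher (20%) and 6 lower (40%), with a median of 0.027. Over all tested genes 18.1% were higher and 18.4% lower. Phgdh, the first enzyme of serine synthesis, had 10.27 in reprogrammed and 8.17 in differentiated adipocytes, while the stress-induced Trib3 and Ddit3 were among the lower ones.

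Signalling and stress lists had medians nearer to 0, and their counts stand beside 18.1% higher and 18.4% lower over all tested genes. Of 14 interferon-stimulated genes, 4 were higher and 3 lower, with a median of 0.18. Their median levels were 7.63 in reprogrammed adipocytes, 7.68 in differentiated adipocytes, 11.90 in MSC 1 and 8.24 in MSC 2, so the bright array of this list was an MSC array. Of 16 chemokine and inflammatory genes, 3 were higher and 4 lower. Ptgs2, or COX-2, had levels of 9.05 in reprogrammed adipocytes, 5.86 in differentiated adipocytes, 6.33 in MSC 1 and 8.80 in MSC 2, and Ccl2 had 8.76 in reprogrammed and 6.52 in differentiated adipocytes. Of 17 immediate-early genes, 4 were higher and 6 lower. Fos had levels of 7.66 in reprogrammed adipocytes, 11.07 in differentiated adipocytes, 10.68 in MSC 1 and 9.64 in MSC 2, Atf3 had 5.69 in reprogrammed and 9.15 in differentiated adipocytes, and Egr1 lay within 2-fold at 13.06 in reprogrammed and 13.49 in differentiated adipocytes. Of 13 p53 targets, 0 were higher and 5 lower, with a median of -0.80, led by Trp53inp1. Among growth factor systems, Fgf7 had 12.92 in reprogrammed and 9.99 in differentiated adipocytes, Fgfr2 6.92 in reprogrammed and 10.05 in differentiated adipocytes and Igfbp4 11.10 in reprogrammed and 12.90 in differentiated adipocytes. The PDGF, FGF and VEGF list held 5 higher and 4 lower of 15, and the insulin-like growth factor list 1 higher and 3 lower of 8.

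**Figure D4:**
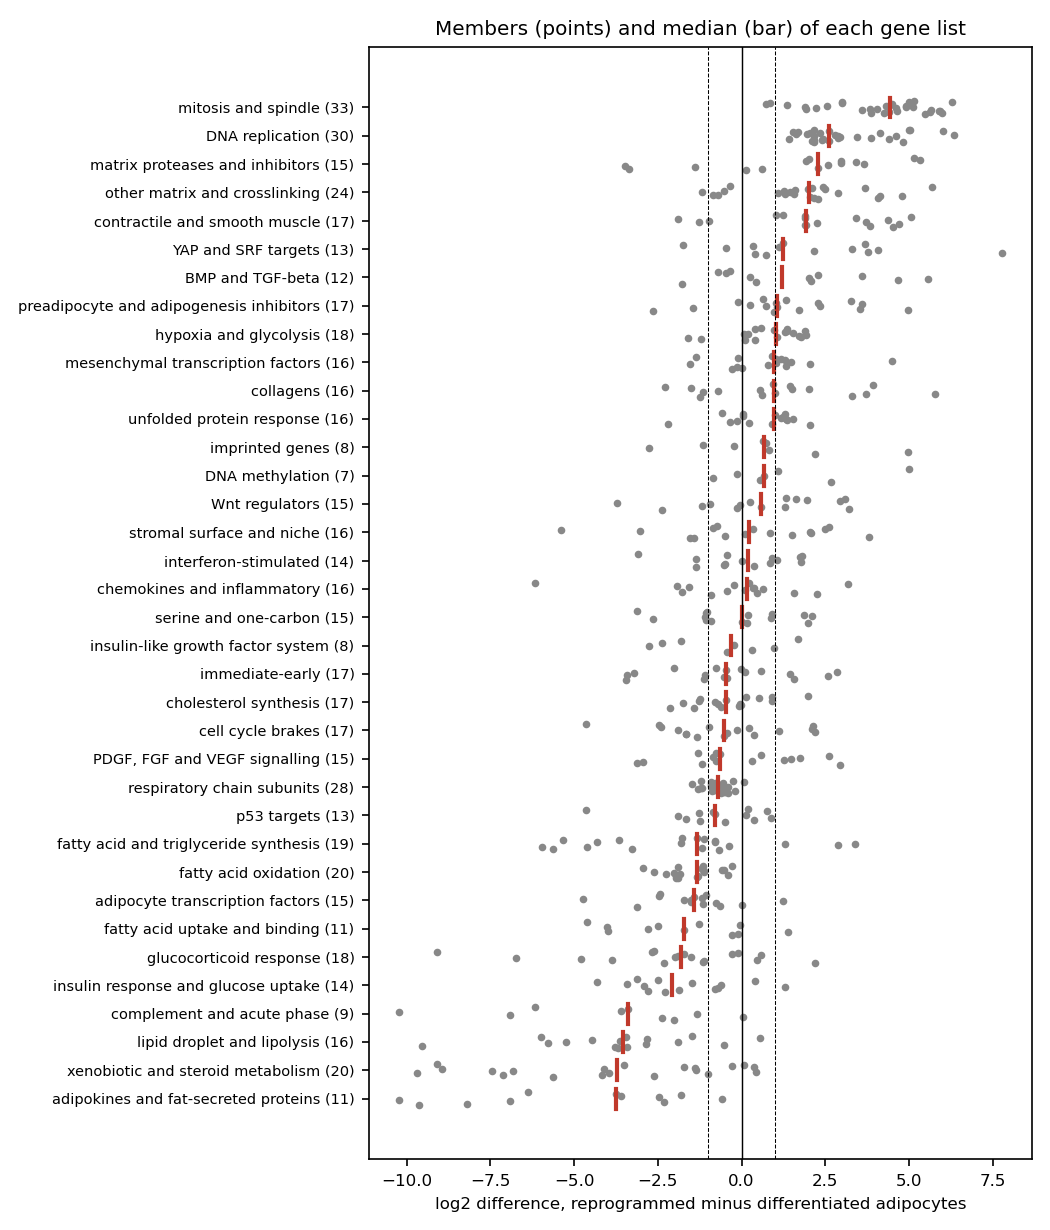
Difference of each tested member (grey points, log2, reprogrammed minus differentiated adipocytes) and list median (red bar) for 36 gene lists with at least 5 tested members, the number tested in brackets and dashed lines at 2-fold. Mitosis and replication lists lie highest and adipokine, xenobiotic and lipid droplet lists lowest.

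The level of each called gene was set beside the MSC arrays, the source of all these cells by their labels. Of the 1732 genes higher in reprogrammed adipocytes, 1029 (59.4%) had a reprogrammed level within 2-fold of both MSC arrays, and 217 (12.5%) a differentiated level within it. Of the 1765 lower genes the counts were 1230 (69.7%) for the reprogrammed and 246 (13.9%) for the differentiated array. Over all 9574 genes tested the shares were 80.6% and 57.7%. For the called genes the reprogrammed array lay closer to MSC 2 than to MSC 1. Against MSC 2 alone its level was within 2-fold for 97.2% of the higher and 95.5% of the lower genes. Against MSC 1 alone it was so for 60.4% and 70.7%. The matching shares over all tested genes were not computed against a single MSC array. Differentiated adipocytes were at least 2-fold below both MSC arrays for 934 of the higher genes and at least 2-fold above both for 923 of the lower genes. These comparisons share arrays, and are given as levels with no test.

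Some genes left the MSC range in reprogrammed adipocytes. Among the higher genes, 15 were at least 2-fold above both MSC arrays. Il11, a cytokine of stromal cells, had levels of 7.57 in reprogrammed adipocytes, 5.52 (undetected) in differentiated adipocytes, and was undetected at 4.57 and 5.23 on the MSC arrays. Nefm, a neurofilament, had levels of 8.99 in reprogrammed adipocytes, 5.08 (undetected) in differentiated adipocytes, 5.22 (undetected) in MSC 1 and 6.89 in MSC 2. Etv4, an ETS factor downstream of FGF signalling, had levels of 8.49 in reprogrammed adipocytes, 5.12 (undetected) in differentiated adipocytes, 6.42 in MSC 1 and 7.14 in MSC 2. Col2a1, Tnc and Tagln, described above, belong here too. Among the lower genes, 59 were at least 2-fold below both MSC arrays. Gpx3, a secreted glutathione peroxidase, had levels of 6.51 in reprogrammed adipocytes, 8.12 in differentiated adipocytes, 10.90 in MSC 1 and 11.28 in MSC 2. Stc1, stanniocalcin, had levels of 5.08 (undetected) in reprogrammed adipocytes, 6.33 in differentiated adipocytes, 9.31 in MSC 1 and 8.14 in MSC 2. Il1rn, the interleukin 1 receptor antagonist, had levels of 7.33 in reprogrammed adipocytes, 9.05 in differentiated adipocytes, 12.95 in MSC 1 and 9.56 in MSC 2. For these the order was MSC highest, differentiated adipocytes next and reprogrammed adipocytes lowest. The genes of this paragraph were picked after their values were seen, from those farthest from the MSC arrays.

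The chondrocyte and osteocyte lineages had pairs of the same kind, each of 1 reprogrammed and 1 differentiated array, sharing no array with the adipocyte pair. In the chondrocyte pair 21.1% of probes were higher and 19% lower, and in the osteocyte pair 12% and 10.8%. Of the 3275 probes higher in the adipocyte pair, 1551 were higher in the chondrocyte pair (47.4% of the adipocyte and 38.6% of the chondrocyte list), and 1033 in the osteocyte pair (31.5% and 48.6%). Of the 3041 lower probes, 926 were lower in the chondrocyte pair (30.5% and 25.6%) and 689 in the osteocyte pair (22.7% and 36.1%). Probes not called in the same direction in either other pair made up 39.9% of the higher and 58.8% of the lower ones, and probes called in the same direction in all 3 pairs 18.8% and 11.9%. In the opposite direction, 7.18% of the higher and 6.94% of the lower ones were called in the chondrocyte pair, and 3.85% and 3.35% in the osteocyte pair. Called in neither other pair in any direction were 32.5% of the higher and 50.7% of the lower ones. The osteocyte arrays were deposited on another intensity distribution than the other 8, so scale and lineage cannot be told apart there.

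Among the 36 pathway lists with 5 or more tested genes, mitosis had the highest median in the adipocyte, chondrocyte and osteocyte pairs alike, with 4.44, 4.11 and 1.67. Genes of the lipid droplet had medians of -3.54, -0.39 and -0.35, and xenobiotic enzymes -3.72, -0.29 and -0.75, in the same order of lineages. All these medians are over members tested in the adipocyte pair, and some members were undetected elsewhere. Cidec and Cyp2e1 were detected on 0 of the 4 chondrocyte and osteocyte arrays. The values near 0 are therefore not read as a contrast between lineages. Adipokines had -3.74, -2.11 and -0.53, with a difference of -4.26 for Adipoq in the chondrocyte pair. Complement and acute phase genes had -3.39, -5.23 and -1.32. Macrophage markers had a median of -6.34 in the chondrocyte pair over the 4 genes tested in adipocytes. Adgre1, a further marker, had a level of 4.42 in reprogrammed and 12.98 in differentiated chondrocytes. The part of macrophage genes in the complement value there was not tested. Timp1 had differences of 5.34, -1.23 and 0.79, and Col1a1 of 5.77, -3.40 and 3.28. Pparg had -1.17, 2.86 and 0.29, so it was higher in reprogrammed than in differentiated chondrocytes. With 1 array in each population, none of these differences between lineages was tested.

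**Figure D5:**
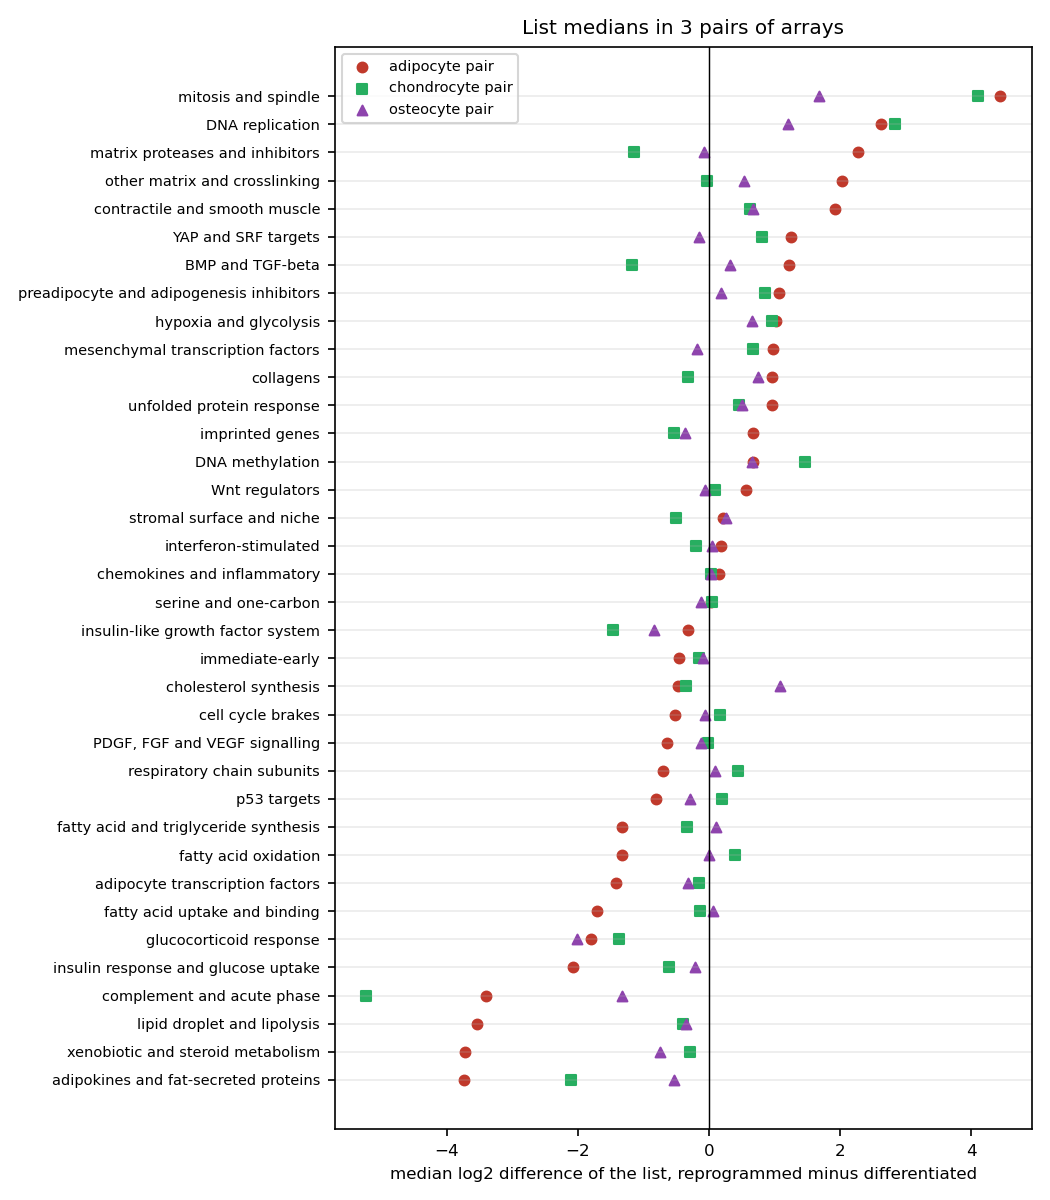
Median log2 difference, reprogrammed minus differentiated, of 36 gene lists in the adipocyte (circles), chondrocyte (squares) and osteocyte (triangles) pairs, over the members tested in the adipocyte pair. Mitosis and replication lie right of 0 in all 3 pairs. The droplet list lies at -3.54 in the adipocyte pair and near 0 in the others, where Cidec was undetected.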

How the data were processed

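Total RNA was measured on Illumina mouse bead arrays, and each array was assigned to its population by the labels. The deposited scanner table gives each probe's average intensity and its detection p-value, per the file headers. The background correction and scaling behind these intensities are not given in the sources used here. A deposited linear value table pairs its intensities with other probe names: by ranks, 45281 lines matched a scanner probe and 1 carried that probe's own name, so it was used only as an alternative, matched by rank. Intensities were corrected with limma's neqc (version 3.58.1, R 4.3.3; normexp from the detection p-values, offset 16, then quantile normalisation over 10 arrays) and put on the log2 scale. Differences, counts, lists and promoter motifs were computed in Python 3.11.15 (numpy 2.4.6, pandas 2.3.3, scipy 1.17.1). The normalisation was checked with known folds multiplied onto probes of the reprogrammed adipocyte array, and the counting was not tested this way. The platform annotation gave 1 symbol to 34885 probes, several to 18 and none to 10378. A gene was read from its brightest probe by mean over 10 arrays, and named after the probe table's symbols, updated where RefSeq allowed. The number of arrays, 1 a side, limits the precision, and no test was made. The named genes were the 20 largest differences each way and all cell type markers. Up to 8 members of each list at least 2-fold apart, and up to 3 that were not, were added. Not all of these appear in the text, and many cell type markers are left out. Genes outside the MSC range were picked apart from this rule. The 39 pathway and 11 cell type lists, the members and the rules were chosen with earlier results of these data known, and 4 more lists after the values were seen. Alternatives varied the background correction, offset, scaling, detection limit, fold and probe choice.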

Additional observations from a re-analysis of the deposited data

Results flagged for a closer look

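Some lists and genes had the other sign in the chondrocyte and osteocyte pairs than in the adipocyte pair, several of them at values near 0. With 1 array in each population, the difference between lineages was not tested. Matrix proteases and inhibitors had a median difference of 2.27 in the adipocyte pair, -1.14 in the chondrocyte pair and -0.082 in the osteocyte pair. Adipocyte markers had medians of -2.96, 0.22 and 0.11 in that order of lineages, though Adipoq itself had -4.26 in the chondrocyte pair. The markers counted were those tested in the adipocyte pair, and Cidec was detected on 0 of the 4 chondrocyte and osteocyte arrays. The signs of the 0.22 and 0.11 are therefore not read as a direction. Neutrophil and B cell markers had -1.8, 0.039 and 0.10, over 3 tested genes. Timp3, the matrix-bound inhibitor, had a difference of 5.16 in the adipocyte pair, against -0.90 in the chondrocyte and -2.01 in the osteocyte pair. Agt, angiotensinogen, had -8.2 in the adipocyte pair, 1.01 in the chondrocyte pair and 2.26 in the osteocyte pair. Its probe was undetected in reprogrammed adipocytes, so it is read as at least 205-fold lower there, and it was undetected in differentiated chondrocytes. Cyp2e1, a cytochrome P450, had -7.46 in the adipocyte pair, 0.30 in the chondrocyte pair and 0.079 in the osteocyte pair. It was undetected in reprogrammed adipocytes, where it is read as at least 92.1-fold lower, and was detected on 0 of the 4 chondrocyte and osteocyte arrays, so its signs there carry no direction. The osteocyte arrays were deposited on another intensity distribution than the other 8.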

How the results depend on the processing

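Of 420 named genes, the 304 at least 2-fold apart kept their sign under the 75th percentile scaling, quantile normalisation over 8 arrays, an offset of 50, no background correction together with that offset, the rank-matched value table and the median of a gene's detected probes. Of the 116 within 2-fold, 16 had another sign in the value table, 5 with the median of probes (Cebpd at -1.07 and Cxcl12 at -0.65 among them) and 1 with the 75th percentile. The first 2 of the settings named above moved none of the 420 by more than the spread between the MSC arrays (SD 0.58), while no background correction with the offset moved 175, an offset of 50 moved 96, that table of values moved 96 and the median of probes 43. The value table moved the median of all genes to -0.18.

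Without background correction and with 50 added, 2 choices changed together, 1549 probes were higher and 1470 lower. With the correction and a 4-fold limit they were 985 and 929. List medians without it and with 50 added were 2.69 for mitosis, 2.00 for replication, 1.27 for proteases, 0.46 for BMP and TGF-beta, 0.26 for stromal markers, 0.37 for neural markers, -0.83 for neutrophil markers, -0.97 for insulin response, -1.04 for fatty acid uptake, -1.09 for glucocorticoid response, -1.42 for complement, -2.19 for adipocyte markers, -2.25 for brown fat, -2.26 for adipokines, -2.56 for xenobiotic enzymes and -2.59 for the lipid droplet. With an offset of 50 alone they were 3.53 for mitosis, 0.62 for neural markers, -1.50 for insulin response, -2.31 for complement, -2.95 for adipokines and -3.34 for brown fat. In the value table they were -2.31 for fatty acid uptake, -4.17 for complement, -4.36 for xenobiotic enzymes, -4.60 for adipokines and -5.44 for brown fat. With undetected genes at the detection floor, an alternative chosen after seeing the data, they were 3.78 for mitosis, 0.027 for pluripotency, -2.43 for complement and -3.54 for brown fat. The neural markers, over 3 genes, turned to -0.019. Lists with medians near 0 had no settled sign: chemokines had -0.068 with the median of probes, osteoblast markers -0.052 at the floor, and serine enzymes -0.38, histones -0.043 and stromal surface genes -0.019 in the value table.

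The share of higher genes whose reprogrammed level was within 2-fold of both MSC arrays was 67.3% without background correction and with 50 added, and 63.0% with an offset of 50 alone, and of lower genes 78.7% and 73.5%. Against a single MSC array the shares ranged between 60.4% and 97.2% for higher and between 70.7% and 95.5% for lower genes. Of the probes higher in the adipocyte pair, 42.0% were higher in the chondrocyte pair with cyclic loess and 41.7% at 4-fold. Of the lower probes, 34.6% were lower there with loess, 24.5% at 4-fold and 26.4% without background correction and with 50 added. In the osteocyte pair the higher shares were 22.1% with the 75th percentile, 29.8% with loess, 15.3% at 4-fold, 25.7% without background correction and with 50 added, and 29.3% with an offset of 50 alone. The lower shares there were 25.0%, 18.6%, 11.9%, 17.01% and 19.9% under the same settings. The cause of these changes was not tested. Signals near background limit the folds of undetected genes. No paired analysis was possible because each population but the MSC had 1 array.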

Other observations

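Other mitochondrial and peroxisomal pathways were read in lists chosen after the values were seen. Of 15 tested genes of branched-chain amino acid breakdown, a source of carbon for fat synthesis, 0 were higher and 14 lower in reprogrammed than in differentiated adipocytes, with a median of -1.69. Bcat2, the mitochondrial transaminase of the first step, had 7.42 in reprogrammed and 11.56 in differentiated adipocytes, and Bckdha, a subunit of the committed dehydrogenase, 7.39 in reprogrammed and 11.27 in differentiated adipocytes. Of 23 peroxisome genes 0 were higher and 20 lower, with a median of -1.86. Acaa1b, a peroxisomal thiolase, was at least 61.8-fold lower and undetected in reprogrammed adipocytes, and Cat, or catalase, had 10.07 in reprogrammed and 13.04 in differentiated adipocytes. The reprogrammed level was within 2-fold of both MSC arrays for 18 of the 23, and the differentiated level for 1, against 80.6% and 57.7% of all tested genes. Of 18 genes of the citric acid cycle, 1 was higher and 6 lower, with a median of -0.86. All 3 tested subunits of isocitrate dehydrogenase 3, Idh3a, Idh3b and Idh3g, were lower, with differences of -1.49, -1.58 and -1.52. Sucla2, a subunit of succinyl-CoA synthetase, was the higher member, at 1.88.

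Histone genes whose transcripts normally lack a poly(A) tail split, unlike the replication list. Of 43 tested, 20 were higher and 18 lower, with a median of 0.13. H4c8, a histone H4 gene, had 6.38 in reprogrammed and 10.82 in differentiated adipocytes, and H2bc4, a histone H2B gene, 9.26 in reprogrammed and 12.85 in differentiated adipocytes. H2ac22, a histone H2A gene, had 12.82 in reprogrammed and 9.43 in differentiated adipocytes, and H3c7, a histone H3 gene, 9.19 in reprogrammed and 6.15 in differentiated adipocytes. These genes are near-identical copies, so which of them a probe reads is uncertain.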
